A study of Mus musculus with 105 samples.

Results

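Glycolysis turns glucose into pyruvate in the cytosol, and each step has its own enzyme. Hexokinase traps glucose in the cell, phosphofructokinase commits the sugar to the pathway, and aldolase and triose phosphate isomerase split and convert it. Gapdh then forms NADH, phosphoglycerate kinase forms ATP, phosphoglycerate mutase and enolase prepare the last step, and lactate dehydrogenase turns pyruvate into lactate. The gene of phosphoglycerate kinase 1 (Pgk1) lies on the X chromosome, of which 1 copy is silenced in the somatic cells of female mammals.

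The 10 genes described here are Hk2, Pfkp, Pfkl, Aldoa, Tpi1, Gapdh, Pgk1, Pgam1, Eno1 and Ldha. They are glycolytic enzymes given by name, chosen with earlier results of these data known and leaving out the enzymes of some steps, and all 10 were found among the 52108 genes of the bulk count tables and the 34195 genes of the single-cell table. TX1072 (clone A3) is a female mouse embryonic stem cell line with 1 parent of the strain B6 and 1 of Cast. Its B6 copy of Xist was engineered to be inducible by doxycycline, through rtTA inserted at Rosa26. Its cells were grown in 2i, Lif and serum and differentiated by withdrawing 2i and Lif for 1 to 4 days. Day 0 is the undifferentiated state. TXdXicB6 and TXdXicCast were derived from TX1072. They lack a region around Xist on the B6 X chromosome (chrX:103182701-103955531) or on the Cast X chromosome (chrX:103182257-103955698), respectively. The engineered B6 copy of Xist lies within the region deleted in TXdXicB6 and is kept in TXdXicCast. In TXdXicB6 the Cast X chromosome is thus the inactive one (Xi) and the B6 X chromosome the active one (Xa), and in TXdXicCast the reverse holds. Each deletion line is 1 clone. Bulk RNA was sequenced from 3 replicates per line and day, with total counts of 19827011 to 39628784 in TX1072, 20246434 to 49962859 in TXdXicB6 and 16906263 to 57920260 in TXdXicCast. The TXdXicCast day 0 libraries were made from degraded RNA with another fragmentation, so that changes from day 0 in this line carry that difference, and changes from day 1 were computed beside them. Single TX1072 cells came from 1 culture per day, with 1472 of 2000 capture sites retained. Their 3′ ends were counted by unique molecular identifiers (UMIs).

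Marker genes were read first in TX1072. The naive stem cell genes Zfp42 and Esrrb fell from 335 ± 20.3 and 609 ± 40.7 CPM (counts scaled by library size; mean ± SD, n = 3) on day 0 to 37.7 ± 3.09 and 54.5 ± 13.7 CPM on day 4, and the formative gene Fgf5 rose from 0.116 ± 0.0723 to 135 ± 5.00 CPM. Xist rose from 0.558 ± 0.256 to 153 ± 27.9 CPM. All 9 naive markers were lower on day 4, and they summed to 5054 ± 197 and 454 ± 51.9 CPM on days 0 and 4, with Tfcp2l1 and Nanog the most abundant. The 3 primitive streak and mesoderm markers summed to 14.5 ± 2.04 and 224 ± 100.7 CPM, with T the most abundant, the 4 endoderm markers to 1.35 ± 0.470 and 17.7 ± 15.3 CPM, with Gata4 and Foxa2, the 3 neural markers to 41.3 ± 4.63 and 127 ± 11.96 CPM, with Nes, and the 5 formative markers to 279 ± 35.7 and 926 ± 92.6 CPM, with Dnmt3b. All of the streak and mesoderm, endoderm and formative markers were higher, as were the neural markers Nes and Pax6, whereas the neural marker Sox1 was lower, at 2.56 ± 1.07 and 1.24 ± 0.815 CPM on days 0 and 4. The 2 pluripotency markers, Pou5f1 and Sox2, summed to 1422 ± 183 and 607 ± 22.8 CPM, and the 3 measured trophoblast markers of 4 to 74.5 ± 17.0 and 96.8 ± 1.05 CPM, with Tfap2c and Krt7 the most abundant. Both pluripotency markers were lower. Of the trophoblast markers Krt7 was higher, at 0.260 ± 0.128 and 59.7 ± 0.447 CPM, and 2 were lower, Tfap2c and Cdx2, the latter at 10.5 ± 5.70 and 2.10 ± 0.423 CPM. None of the measured markers was at 0. The course between these days was not steady. On day 2 the formative markers summed to 3098 ± 40.3 CPM, above day 4, and the naive markers to 301 ± 41.5 CPM, below day 4. The part of such changes in cell composition in the values of the glycolytic genes was not tested, and in bulk RNA fewer cells of a type cannot be told apart from less RNA per cell.

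Per length, the genes differed widely in level on day 0 of TX1072. Levels per length (RPKM, the CPM per kilobase of the main transcript) were highest for Aldoa, at 1181 ± 63.7, and Gapdh, at 1044 ± 234, whose replicates overlapped. Ldha followed at 617 ± 12.3, Eno1 at 391 ± 17.2, Tpi1 at 277 ± 45.9 and Pgk1 at 204 ± 2.95 RPKM, each without overlap with its neighbours in this order. Pfkp at 107 ± 15.5, Hk2 at 79.8 ± 14.1, Pgam1 at 77.5 ± 15.9 and Pfkl at 54.9 ± 8.74 RPKM formed the lower end, where each overlapped the next. With the length of all annotated exons in place of the main transcript, an alternative added after seeing the data, Aldoa stayed highest at 628 ± 33.9, Gapdh (359 ± 80.5) overlapped Ldha (339 ± 6.76), and Pgk1 (166 ± 2.40), Tpi1 (162 ± 26.8) and Eno1 (147 ± 6.46) overlapped in turn. Gapdh has 141 annotated pseudogenes that match its transcript over at least 50% of the length at 90% identity or more, Ldha has 6, Eno1 5, Aldoa 3 and Pgk1 2, so that the counts of these genes are uncertain to the extent that reads were placed among copies. Hk2, Pfkp, Pfkl, Tpi1 and Pgam1 have none.

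By day 4 the 10 genes had moved in both directions in TX1072. Relative to day 0, 4 of the 10 were higher (Pfkl, Eno1, Ldha and Tpi1), 3 were lower (Pfkp, Hk2 and Aldoa), and 3 did not pass the test (Gapdh, Pgk1 and Pgam1), by the quasi-likelihood test of edgeR at an adjusted p of 0.05. Of all 18871 genes tested, 30.2% were called higher and 29.4% lower, so the counts among the 10 were near the background. The median log2 fold change of the 10 was -0.11, against -0.03 over all genes tested.

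**Figure D1:**
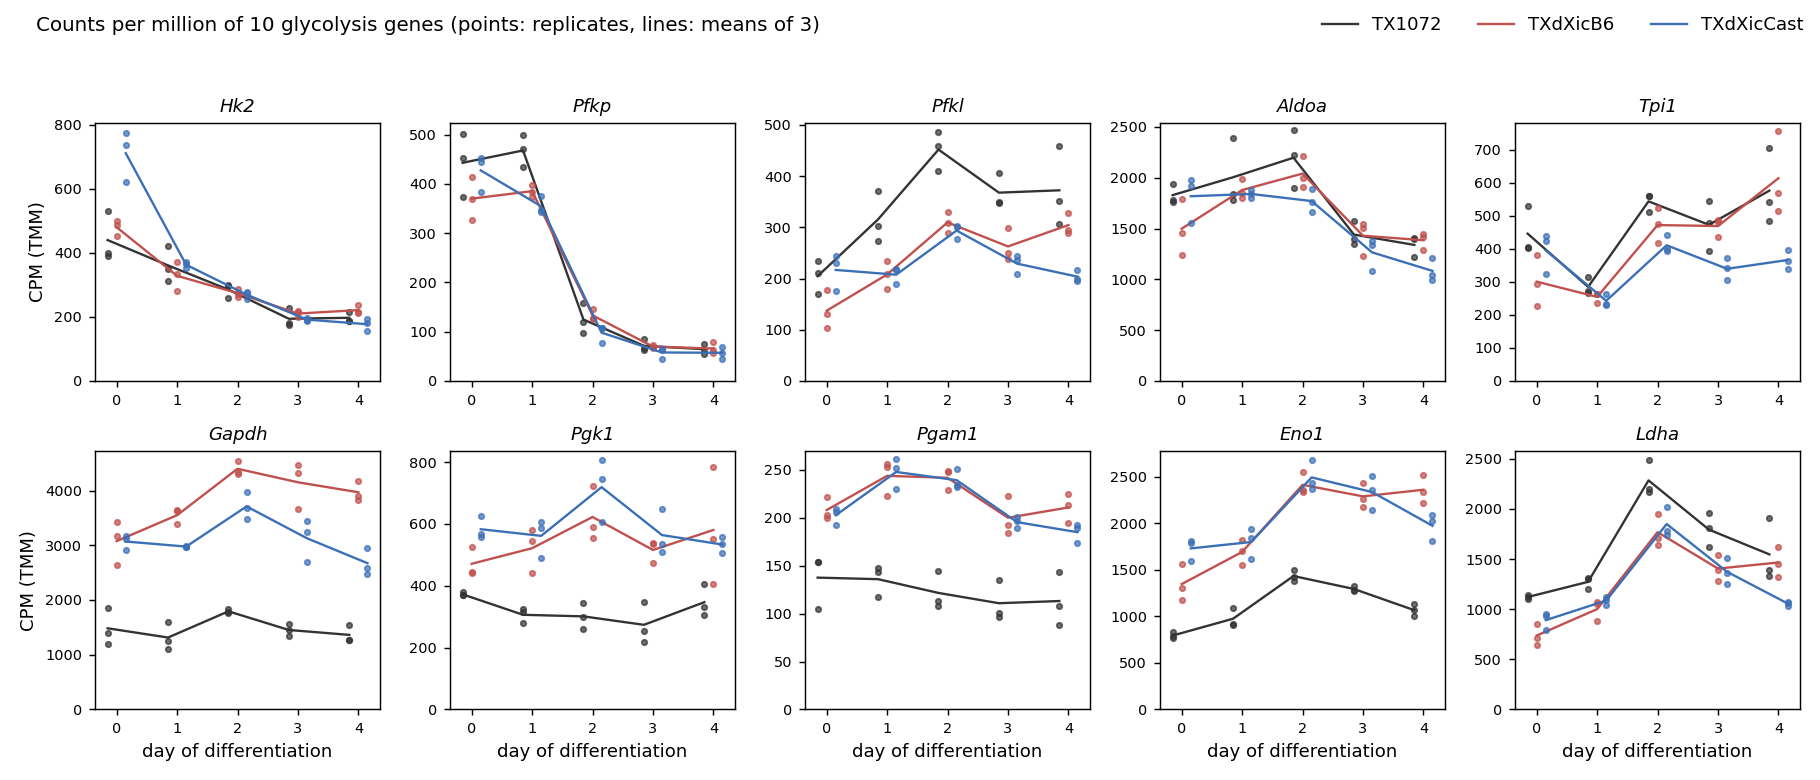
CPM scaled by TMM factors (y axis, from 0) of the 10 genes by day of differentiation (x axis), with each replicate as a point and the mean of 3 replicates as a line, for TX1072 (black), TXdXicB6 (red) and TXdXicCast (blue). Pfkp is near its day 0 level on day 1 and far below it from day 2 in every line, while Pgk1 stays between 219.6 and 406 CPM in TX1072.

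The steepest fall was that of Pfkp, the platelet-type isozyme of phosphofructokinase (Ensembl ENSMUSG00000021196, GRCm38 chromosome 13, 6579768 to 6648777, minus strand). Its 3 TX1072 libraries held 501, 453 and 374 CPM on day 0, 157, 120 and 96.2 CPM on day 2, and 75.2, 62.8 and 55.1 CPM on day 4. The groups did not overlap, and the day 1 mean of 468 ± 32.2 CPM was still at the starting level. The log2 fold change on day 4 was -2.78 ± 0.18 (SE, adjusted p = 2.21e-10 by edgeR). Most of the drop fell between day 1 and day 2, with a log2 change of -1.91 ± 0.17 (adjusted p = 9.85e-08 by edgeR).

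Pfkl, the liver-type isozyme of the same enzyme (ENSMUSG00000020277, chromosome 10, 77986947 to 78010083, minus strand), moved the other way. It stood at 210, 234 and 170 CPM on day 0, at 459, 486 and 411 CPM on day 2 and at 458, 351 and 307 CPM on day 4. All day 2 and day 4 libraries lay above all day 0 libraries, and the log2 fold change on day 4 was 0.86 ± 0.15 (SE, adjusted p = 9.36e-05 by edgeR). Per length of the main transcript, the order of both isozymes turned over. The day 0 libraries had 121, 109 and 90.3 RPKM of Pfkp and 56.4, 62.7 and 45.5 RPKM of Pfkl, whereas those of day 4 had 18.1, 15.2 and 13.3 RPKM of Pfkp and 123, 94.2 and 82.4 RPKM of Pfkl, without overlap on either day. Per length of all annotated exons the day 0 libraries overlapped, at 37.4, 33.8 and 27.9 CPM per kilobase of Pfkp and 31.5, 35.1 and 25.4 of Pfkl, and those of day 4 did not, at 5.61, 4.69 and 4.11 of Pfkp and 68.7, 52.6 and 46.1 of Pfkl.

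Hk2, the inducible hexokinase that binds to mitochondria (ENSMUSG00000000628, chromosome 6, 82725025 to 82774454, minus strand), fell in steps. It held 391, 530 and 399 CPM on day 0, 295, 261 and 300 CPM on day 2 and 187, 217 and 188 CPM on day 4. The day 0 libraries were all above those of day 2, and those all above day 4. Its log2 fold change on day 4 was -1.16 ± 0.14 (SE, adjusted p = 1.21e-06 by edgeR).

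Aldoa, the main aldolase of most tissues (ENSMUSG00000030695, chromosome 7, 126795234 to 126800751, minus strand), first held its level and then fell. It had 1760, 1942 and 1785 CPM on day 0, 2469, 2223 and 1901 CPM on day 2 and 1395, 1404 and 1217 CPM on day 4. Day 4 lay below day 0 in each library, with a log2 fold change of -0.45 ± 0.13 (SE, adjusted p = 0.00576 by edgeR). The change from day 2 to day 3 was -0.61 ± 0.13 (adjusted p = 0.00180 by edgeR).

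Ldha, which forms lactate (ENSMUSG00000063229, chromosome 7, 46841475 to 46855627, plus strand), peaked on day 2. It had 1121, 1098 and 1143 CPM on day 0, 2200, 2484 and 2169 CPM on day 2 and 1914, 1391 and 1334 CPM on day 4. The peak stood 1.03 ± 0.13 over day 0 on the log2 scale (SE, adjusted p = 1.96e-06 by edgeR), and on day 4 the difference was 0.46 ± 0.13 (adjusted p = 0.00424). Without replicate 1 the day 4 difference was 0.28 and no longer passed (adjusted p = 0.148 by edgeR).

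Eno1, the ubiquitous enolase (ENSMUSG00000063524, chromosome 4, 150236721 to 150248879, plus strand), followed the same course. It rose from 765, 783 and 832 CPM on day 0 to 1494, 1381 and 1422 CPM on day 2 and stood at 1063, 1132 and 1002 CPM on day 4. No day 2 or day 4 library overlapped the day 0 libraries. The log2 fold change was 0.85 ± 0.10 on day 2 (SE, adjusted p = 8.17e-07 by edgeR) and 0.43 ± 0.10 on day 4 (adjusted p = 0.00114).

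Tpi1, triose phosphate isomerase (ENSMUSG00000023456, chromosome 6, 124810586 to 124814296, minus strand), dipped before it rose. Its libraries held 405, 401 and 531 CPM on day 0, 274, 314 and 266 CPM on day 1 and 704, 541 and 483 CPM on day 4. All day 1 libraries were below all day 0 libraries, whereas day 4 overlapped day 0. The log2 change was -0.65 ± 0.15 on day 1 (SE, adjusted p = 0.00172 by edgeR) and 0.37 ± 0.15 on day 4 (adjusted p = 0.0414). The day 4 call was lost without replicate 1 (log2 change 0.14, adjusted p = 0.544) and without replicate 2 (0.34, adjusted p = 0.106), both by edgeR. Without replicate 3 it was kept, with a log2 change of 0.62.

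Gapdh, which oxidises glyceraldehyde 3-phosphate and is a common reference gene (ENSMUSG00000057666, chromosome 6, 125161715 to 125166467, minus strand), held 1202, 1397 and 1851 CPM on day 0 and 1274, 1537 and 1276 CPM on day 4. These groups overlapped, and the log2 difference was -0.12 ± 0.15 (SE, adjusted p = 0.511 by edgeR). Pgam1, phosphoglycerate mutase (ENSMUSG00000011752, chromosome 19, 41911923 to 41918660, plus strand), held 153, 154 and 105 CPM on day 0 and 144, 108 and 87.7 CPM on day 4, with a log2 difference of -0.28 ± 0.19 (SE, adjusted p = 0.208 by edgeR). Both genes overlapped between the days. Leaving out 1 replicate moved the Pgam1 difference between -0.41 and -0.16.

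**Figure D2:**
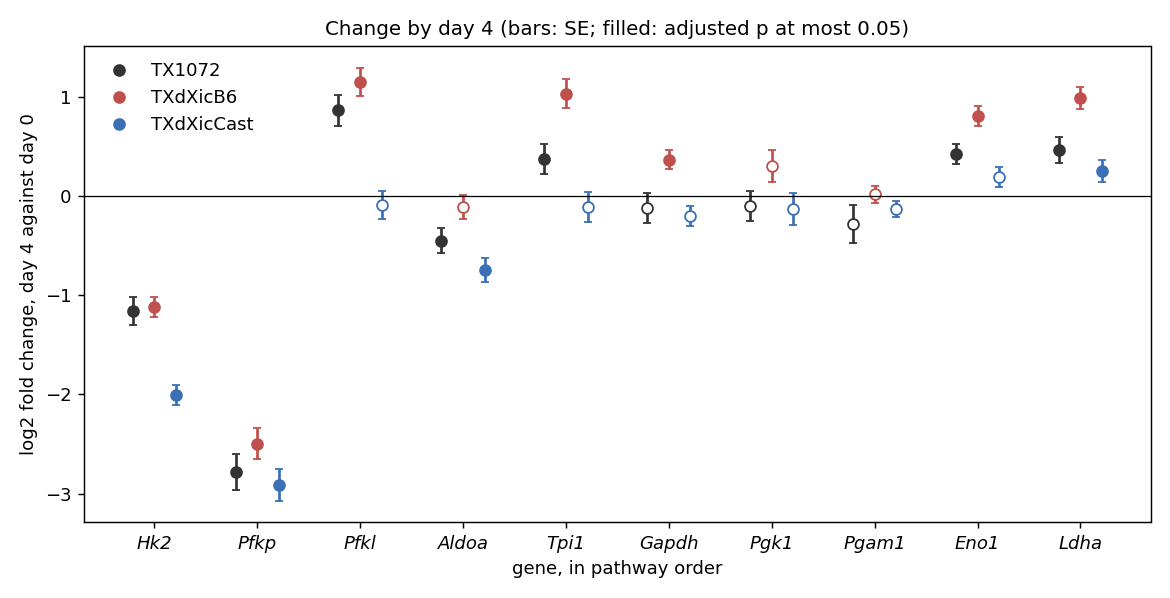
Log2 fold change of the 10 genes between day 4 and day 0 (y axis) in the order of the pathway (x axis), for TX1072 (black), TXdXicB6 (red) and TXdXicCast (blue), with bars for the SE and filled points for an adjusted p of at most 0.05. Pfkp lies lowest in every line (-2.78, -2.49 and -2.91).

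The count of genes past the test changed over the course. On day 1, 2 of the 10 were higher (Pfkl and Eno1) and 1 lower (Tpi1), against 23.5% and 23.4% of all genes tested, and with the replicate number as a block 3 were lower, with Hk2 (log2 change -0.28, adjusted p = 0.0424) and Pgk1 (-0.28, adjusted p = 0.0478) added. Without replicate 3 none was lower and without replicates 1 or 2 the count higher was 1. On day 2, 3 were higher (Pfkl, Eno1 and Ldha) and 2 lower, against 28.8% and 27.2%, and on day 3, 3 were higher and 4 lower (Hk2, Pfkp, Aldoa and Pgk1), against 28.1% and 27.9%. Without replicate 2 or without replicate 3 the count lower on day 3 was 2, with Aldoa and Pgk1 lost, and without replicate 1 it was 3, with Aldoa lost.

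Between successive days the main step was from day 1 to day 2. There 5 of the 10 were higher (Pfkl, Tpi1, Gapdh, Eno1 and Ldha) and 1 lower (Pfkp), against 20.3% and 18.9% of all genes tested. From day 2 to day 3 none was higher and 3 were lower (Hk2, Pfkp and Aldoa), against 13.8% and 12.9%, and from day 3 to day 4 only Eno1 was called, as lower, against 16% called higher and 11.9% lower. With the replicate block Pgk1 was called higher from day 3 to day 4 (log2 change 0.35, adjusted p = 0.0284 by edgeR, against 0.34 and 0.102 without it). The block also added Hk2 as lower from day 1 to day 2 (-0.32, adjusted p = 0.0278) and Ldha as lower from day 2 to day 3 (-0.35, adjusted p = 0.0280).

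Pgk1 makes the first ATP of the pathway and is expressed in most cells (ENSMUSG00000062070, chromosome X, 106187100 to 106203699, plus strand, outside the deleted region). Its TX1072 libraries held 379, 369 and 370 CPM on day 0, 315, 324 and 280 CPM on day 1, 343, 300 and 260 CPM on day 2, 347, 220 and 254 CPM on day 3 and 406, 331 and 305 CPM on day 4. Days 1 to 3 lay below day 0 in every library and day 4 overlapped it. The log2 difference from day 0 was -0.44 ± 0.15 on day 3 (SE, adjusted p = 0.0180 by edgeR) and -0.10 ± 0.15 on day 4 (adjusted p = 0.583). Leaving out 1 replicate moved the day 4 difference between -0.22 and -0.028. With the replicate block the difference on day 2, -0.32, passed as well (adjusted p = 0.0241 by edgeR, against 0.0921 without it).

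Over the 15 TX1072 libraries the levels of Pgk1 were most like those of Atraid (Pearson's r of log2 CPM = 0.91), Tollip (0.80), Rnf167 (0.80), Isca1 (0.79) and Pttg1ip (0.77), out of 11862 genes with a mean of at least 100 counts. These libraries share days and replicates, so the coefficients are descriptions. Among the other 9 genes the likeness ran from -0.50 for Eno1 to 0.53 for Pgam1.

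The promoters were read for the cores ACGTG and GCGTG, which occur in sites of the hypoxia-inducible factors, because these factors are known regulators of glycolytic genes. RefSeq promoters (GRCm38.p6, 250 bases before each start) were found for all 10 genes, 15 in all. At least 1 core, counted on both strands and with overlapping matches counted separately, was present in 13 of these 15 promoters and in 38.6% of the 32851 promoters of the table. Counted by gene, 9 of the 10 had a core in at least 1 promoter, against 41.5% of the 27025 genes of the table. Some promoters of Aldoa, and some of Eno1, overlap each other and share their matches, so the 15 are not separate. The promoters of the table were not matched for base composition. The other Ldha promoter has 1 match, Tpi1, also higher by day 4, has 0 and Pfkp, which fell, has 3. A match is a description of the letters and no evidence of binding. The promoters of Pgk1 (chrX:106186850-106187099, plus strand, 2 matches) and of Ldha (chr7:46845554-46845803, plus strand, the more upstream of its promoters in the table, 5 matches) are shown because Ldha was higher by day 4 and Pgk1 was not called. The cores, read on either strand, are in capitals.
Pgk1: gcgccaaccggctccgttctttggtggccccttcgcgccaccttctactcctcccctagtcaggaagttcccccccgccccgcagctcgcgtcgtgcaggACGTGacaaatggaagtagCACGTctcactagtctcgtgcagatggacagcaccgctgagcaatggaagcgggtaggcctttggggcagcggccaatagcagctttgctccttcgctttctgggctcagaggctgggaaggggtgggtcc
Ldha: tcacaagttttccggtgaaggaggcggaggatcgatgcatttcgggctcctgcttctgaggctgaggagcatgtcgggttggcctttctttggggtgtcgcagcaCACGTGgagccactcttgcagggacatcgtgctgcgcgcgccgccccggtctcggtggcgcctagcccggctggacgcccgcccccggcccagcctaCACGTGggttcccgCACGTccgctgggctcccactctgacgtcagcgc

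In the deletion lines Pfkp and Hk2 fell as well, whereas Pfkl was called higher on day 4 in TXdXicB6 and did not pass the test in TXdXicCast (log2 change -0.09 ± 0.14, SE, adjusted p = 0.583 by edgeR). In TXdXicB6, 8 of the 10 were higher and 2 lower (Hk2 and Pfkp) on day 2, against 28.9% and 27.2% of the 19885 genes tested, and on day 4, 5 were higher (Pfkl, Tpi1, Gapdh, Eno1 and Ldha) and 2 lower, against 30% and 29.5%. In TXdXicCast, with the degraded day 0 libraries as the base, 5 were higher and 2 lower on day 2, against 34.5% and 31.9%, and 1 was higher (Ldha) and 3 lower (Hk2, Pfkp and Aldoa) on day 4, against 36.2% and 33.6%. The Ldha call was lost without replicate 1, without replicate 2 and without a filter on low counts, and without replicate 3 the count higher was 2, with Eno1 added. With the replicate block Gapdh was lower too (-0.20, adjusted p = 0.0311).

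From day 1 to day 4, which leaves out the degraded libraries, 4 genes were higher in TXdXicB6 (Pfkl, Tpi1, Eno1 and Ldha) and 4 lower (Hk2, Pfkp, Aldoa and Pgam1), against 27.9% and 28.7%. In TXdXicCast 1 was higher (Tpi1) and the same 4 were lower, against 29.3% and 30.1%. Without replicate 2 the count lower in TXdXicB6 was 2, with Aldoa and Pgam1 lost, and without replicate 3 the count higher in TXdXicCast was 2, with Eno1 added. The Pgam1 call in TXdXicB6 (log2 change -0.21, adjusted p = 0.0372) was also lost without replicate 1, without replicate 3, with DESeq2, with its size factors in edgeR and with no filter on low counts. Pfkp fell by 2.55 ± 0.16 in TXdXicB6 and by 2.64 ± 0.16 in TXdXicCast on the log2 scale (SE, adjusted p = 1.87e-13 and 1.08e-13 by edgeR). Tpi1 rose by 1.27 ± 0.15 and 0.59 ± 0.15 (adjusted p = 3.73e-08 and 0.00108). Its libraries went from 264, 236 and 262 CPM to 570, 515 and 755 CPM in TXdXicB6 and from 231, 263 and 234 CPM to 364, 338 and 396 CPM in TXdXicCast, without overlap in either line.

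The change from day 1 to day 4 was compared between the lines by the interaction in the same fit. None of the 10 genes passed, against 0.749% of all genes tested in either direction. The unadjusted p was under 0.05 for 6 of them (Hk2, Pfkl, Tpi1, Gapdh, Eno1 and Ldha). The share of all genes under that unadjusted p was not computed, so these 6 have no background. DESeq2 called 2 (Hk2 and Ldha), the fit with no filter on low counts 1 (Tpi1) and the replicate block 1 (Ldha, log2 difference -0.59, adjusted p = 0.0427). All 10 estimates were lower in TXdXicCast, between -0.09 (Pfkp) and -0.68 (Tpi1) on the log2 scale. The median estimate over all genes tested was -0.014, and the share of them below 0 was not computed.

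On day 4 itself 5 of the 10 genes were lower in TXdXicCast than in TXdXicB6 and none higher, against 1.85% and 4.01% of all genes tested. These were Tpi1 (log2 difference -0.75 ± 0.15, SE, adjusted p = 0.00243), Pfkl (-0.58 ± 0.14, 0.0124), Gapdh (-0.57 ± 0.10, 0.000785), Ldha (-0.47 ± 0.11, 0.00867) and Hk2 (-0.32 ± 0.10, 0.0462), all by edgeR. For Gapdh the libraries held 4168, 3832 and 3905 CPM in TXdXicB6 and 2952, 2589 and 2477 CPM in TXdXicCast, without overlap. The count was 3 without replicate 1, 1 without replicate 2 (Tpi1) and 2 without replicate 3 (Tpi1 and Gapdh). Hk2 was also lost with DESeq2's size factors in edgeR and with no filter on low counts, and with the replicate block 6 genes were lower, with Aldoa added (-0.36, adjusted p = 0.0301). Each line is 1 clone, so that clone and deletion cannot be told apart. The total level of Pgk1 stood at 580 ± 192 and 533 ± 26.4 CPM (log2 difference -0.12 ± 0.16, SE, adjusted p = 0.746 by edgeR).

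The total level of Pgk1 went from 471 ± 48.1 CPM on day 0 to 580 ± 192 CPM on day 4 in TXdXicB6 (log2 difference 0.30 ± 0.16, SE, adjusted p = 0.111 by edgeR) and from 583 ± 36.0 to 533 ± 26.4 CPM in TXdXicCast (-0.13 ± 0.16, adjusted p = 0.487). Without replicate 2 and with no filter on low counts the day 4 difference in TXdXicB6 passed the test. On day 2 Pgk1 was called higher in TXdXicB6, at 623 ± 87.6 CPM (log2 difference 0.40 ± 0.16, SE, adjusted p = 0.0358 by edgeR). In TXdXicCast it stood at 719 ± 103 CPM on day 2 and did not pass (0.30 ± 0.16, adjusted p = 0.0998 by edgeR). The allelic share of Pgk1 moved in both lines. The allele was read from few positions, since of 67 SNPs in the gene 3 lie in exons and 1 of them in the main transcript.

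The annotated processed pseudogenes Pgk1-rs7 and Gm5537 match the B6 sequence around the SNP of the main transcript. Their part in the assignment of B6 reads was not tested. On day 0 the B6 share of allele-assigned Pgk1 counts was 2.70% ± 1.06 in TX1072 (SD, n = 3), 23.1% ± 1.46 in TXdXicB6 and 19.9% ± 1.80 in TXdXicCast. Pgam1, on chromosome 19, likewise had 2.88% ± 0.656 in TX1072, 16.4% ± 1.60 in TXdXicB6 and 14.1% ± 2.01 in TXdXicCast, whereas X-linked G6pdx had 55.0% ± 1.65, 56.6% ± 4.18 and 57.0% ± 1.19. The level of the Pgk1 share thus differed between the library sets on day 0, and the following values are changes within a set.

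In TXdXicB6, where Cast is the Xi, the B6 share of Pgk1 was 24.6%, 22.9% and 21.7% on day 0, 24.2%, 24.6% and 21.4% on day 1, 36.8%, 33.4% and 33.6% on day 2, 48.2%, 49.1% and 48.4% on day 3 and 54.0%, 60.5% and 53.3% on day 4. Each day from day 2 lay above all day 0 libraries. The difference in share was 32.8 percentage points on day 4 (exact two-sided permutation test, p = 0.1, the smallest that 3 against 3 can give). The first day 0 library rests on 240 allele-assigned Pgk1 counts, since 5.21% of its counts were assigned to an allele. Without it the change of the log2 B6:Cast ratio by day 4 was 2.13. Of the day 2 libraries the first had 20.3% and the second 9.57% of its counts assigned to an allele, with 616 and 279 B6 and 1057 and 557 Cast counts of Pgk1, against 30.1% in the third.

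In TXdXicCast, where B6 is the Xi, the share fell. It was 19.5%, 21.8% and 18.3% on day 0, 23.8%, 20.4% and 19.8% on day 1, 15.3%, 11.8% and 10.5% on day 2, 14.6%, 11.01% and 10.0% on day 3 and 13.3%, 10.6% and 9.76% on day 4. From day 2 all libraries lay below day 0, by 8.64 percentage points on day 4 (exact two-sided permutation test, p = 0.1). In each line the chromosome that can carry the Xi lost share from day 2.

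**Figure D3:**
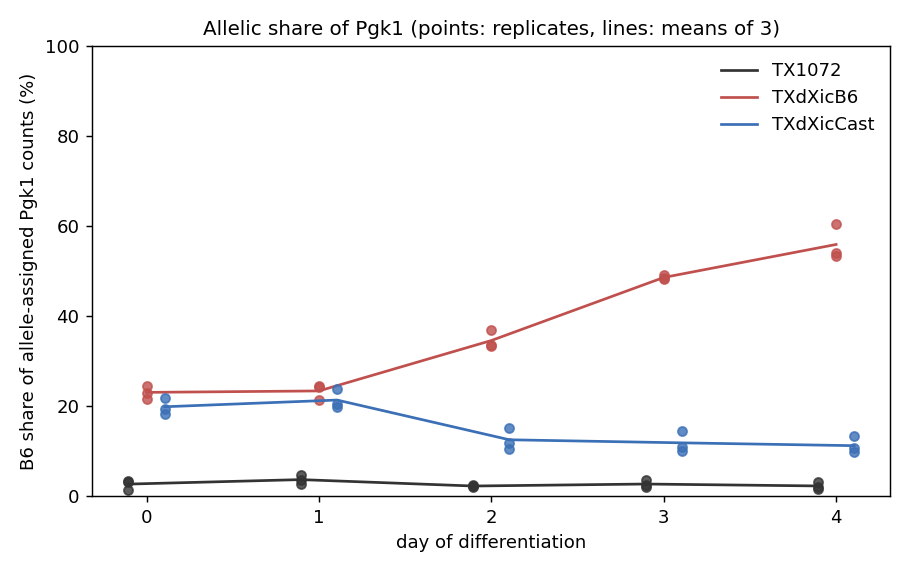
B6 share of allele-assigned Pgk1 counts in percent (y axis) by day of differentiation (x axis), with each replicate as a point and the mean of 3 as a line, for TX1072 (black), TXdXicB6 (red) and TXdXicCast (blue). TXdXicB6 rises from 23.1% to 55.9%, TXdXicCast falls from 19.9% to 11.2%, and TX1072 stays between 1.49% and 4.79%.

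On the log2 scale the B6:Cast ratio of Pgk1 in TXdXicB6 changed from day 0 by 0.06 ± 0.14 on day 1 (SE, adjusted p = 0.863), 0.86 ± 0.14 on day 2 (5.96e-06), 1.69 ± 0.14 on day 3 (7.92e-15) and 2.11 ± 0.14 on day 4 (1.68e-18), by edgeR on the allele-assigned counts with a term per library. In TXdXicCast it changed by 0.15 ± 0.14 on day 1 (adjusted p = 0.483), -0.75 ± 0.13 on day 2 (1.24e-05), -0.84 ± 0.14 on day 3 (4.94e-06) and -0.93 ± 0.14 on day 4 (3.31e-07). The Xi:Xa ratio of Pgk1 therefore did not pass the test on day 1 and fell from day 2 in both lines. From day 1 the changes on day 4 were 2.05 ± 0.12 in TXdXicB6 and -1.08 ± 0.13 in TXdXicCast (adjusted p = 1.44e-20 and 1.33e-09).

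Other X-linked genes moved as well. Of 332 X-linked genes outside the deletion with enough counts, 84.9% had a higher B6 share on day 4 in TXdXicB6, with a median log2 change of 1.20, and 65.1% a lower B6 share in TXdXicCast, with a median of -0.65. Over all 10268 genes tested these shares were 12.3% and 15.7%. Pgk1 was exceeded by 35 of the 332 genes in TXdXicB6, and 89 fell further in TXdXicCast.

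The X-linked genes of the adjoining pathways were Pdha1, a subunit of pyruvate dehydrogenase, Pdk3, a kinase that inhibits it, G6pdx, the entry enzyme of the pentose phosphate pathway, Pfkfb1, which sets fructose 2,6-bisphosphate, and Tktl1, which had too few allelic counts. On day 4 of TXdXicB6 their log2 B6:Cast change was 1.55 ± 0.12 for Pdk3 (SE, adjusted p = 2.21e-15), 1.16 ± 0.11 for G6pdx (2.70e-12), 0.83 ± 0.26 for Pfkfb1 (0.0154) and 0.48 ± 0.07 for Pdha1 (2.84e-07). In TXdXicCast it was -1.50 ± 0.22 for Pfkfb1 (2.84e-07), -1.28 ± 0.06 for Pdha1 (3.27e-23), -1.22 ± 0.13 for Pdk3 (2.42e-11) and -0.62 ± 0.11 for G6pdx (8.92e-06), all by edgeR. Pgk1 had the largest of these 5 changes in TXdXicB6, and the order of the genes differed between the lines.

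**Figure D4:**
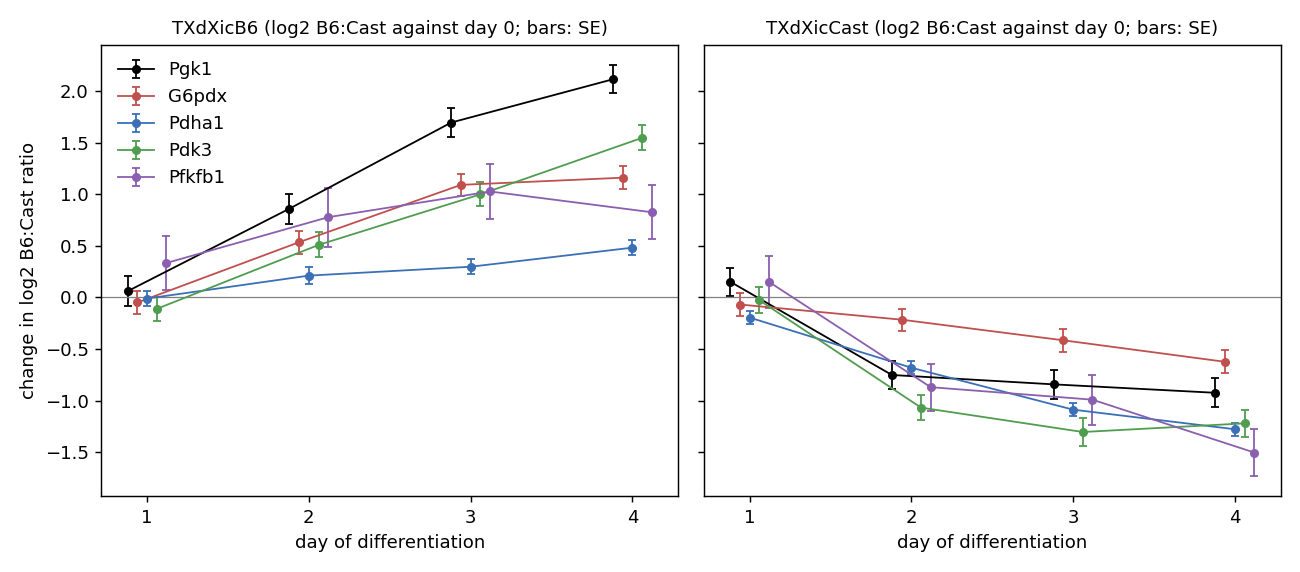
Change of the log2 B6:Cast ratio from day 0 (y axis) at days 1 to 4 (x axis) in TXdXicB6 (left) and TXdXicCast (right) for Pgk1 (black), G6pdx (red), Pdha1 (blue), Pdk3 (green) and Pfkfb1 (purple), with bars for the SE. On day 4 all 5 genes lie above 0 on the left and below 0 on the right.

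In TX1072, where either X chromosome can be silenced, the B6 share of Pgk1 stayed between 1.49% and 4.79%, on 8 to 44 B6 counts per library. Its log2 B6:Cast change on day 4 was -0.37 ± 0.29 (SE, adjusted p = 0.459 by edgeR), which did not pass. Leaving out 1 replicate moved this change between -0.83 and -0.084. Of the 311 X-linked genes tested in this line 7.07% had a higher and 8.04% a lower B6 share on day 4. Pdha1 fell by 0.56 ± 0.06 (adjusted p = 5.79e-09 by edgeR) in the same libraries, while G6pdx (0.01 ± 0.12, adjusted p = 0.960), Pdk3 (0.12 ± 0.13, 0.610) and Pfkfb1 (-0.32 ± 0.26, 0.475) did not pass. Among the 8 autosomal genes tested, 2 had a higher and 1 a lower B6 share on day 4 of TX1072, against 8.89% and 9.42% of all 9923 genes tested. These were Eno1 (0.37 ± 0.09, SE, adjusted p = 0.00179), Pfkl (0.29 ± 0.06, 0.000487) and Pfkp (-0.43 ± 0.09, 0.000323), by edgeR. In the deletion lines 3 were higher and 2 lower in TXdXicB6, against 12.3% and 9.9% of all 10268 genes tested, and 5 were higher and 1 lower in TXdXicCast, against 13.8% and 15.7%. The changes that passed lay between -0.35 (Pfkp) and 0.23 (Eno1) in TXdXicB6 and between -0.33 (Pfkp) and 0.44 (Pgam1) in TXdXicCast. Tpi1 has 1 exonic SNP and was not among the genes tested.

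The single cells were summed per day, in 1 culture per day and with no test, and on day 4, 8 of the 10 genes stood on the same side of day 0 as in bulk. The other 2 were Pgk1 and Gapdh. The share of all genes on the same side was not computed, so this count is a description without a background. Pgam1, counted among the 8, had a bulk change that did not pass the test. Pgk1 stood at 1.03 of day 0 (95% counting interval 0.963 to 1.10), with a bulk log2 change of -0.10. Gapdh stood at 1.04 (0.867 to 1.24), with -0.12 in bulk. Both intervals span 1, so the side of these genes in the single cells is not settled. With the study's size factors Pgk1 stood at 0.987, on the same side as bulk. Leaving out 1 replicate moved the bulk change of Gapdh between -0.26 and 0.11. Bulk replicate 1 came from the same cell population as the single cells, and without it the bulk calls of Tpi1 and Ldha on day 4 were lost, so the single cells are no independent sample beside it. Per the labels the libraries of day 1, and of no other day, were also sequenced in the rapid run mode of the instrument, which had another read length, so that day 1 and this run cannot be told apart. The summed UMIs of Pfkp fell from 323 CPM (here UMIs of the gene relative to all UMIs of the day, 95% exact Poisson interval 317 to 329) on day 0 to 82.4 (79.6 to 85.2) on day 2 and 41.0 (39.2 to 42.9) on day 4. Pfkl went from 44.1 (42.1 to 46.2) to 103 (100.5 to 106.4) and Hk2 from 401 (395 to 408) to 238 (234 to 243) between day 0 and day 4. Hk2 stood at 336 (331 to 342) on day 1 and 360 (355 to 366) on day 2, whereas the bulk means were 361 ± 54.2 and 285 ± 21.5 CPM. These intervals cover counting error only. In the median cell Pfkp had 38 UMIs on day 0 and 0.5 on day 4, and it was not detected in 2 of 277 cells on day 0 and in 136 of 272 on day 4. Ldha rose 2.00-fold on day 2 (1.98 to 2.03) and stood 1.60-fold over day 0 on day 4 (1.57 to 1.62).

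**Figure D5:**
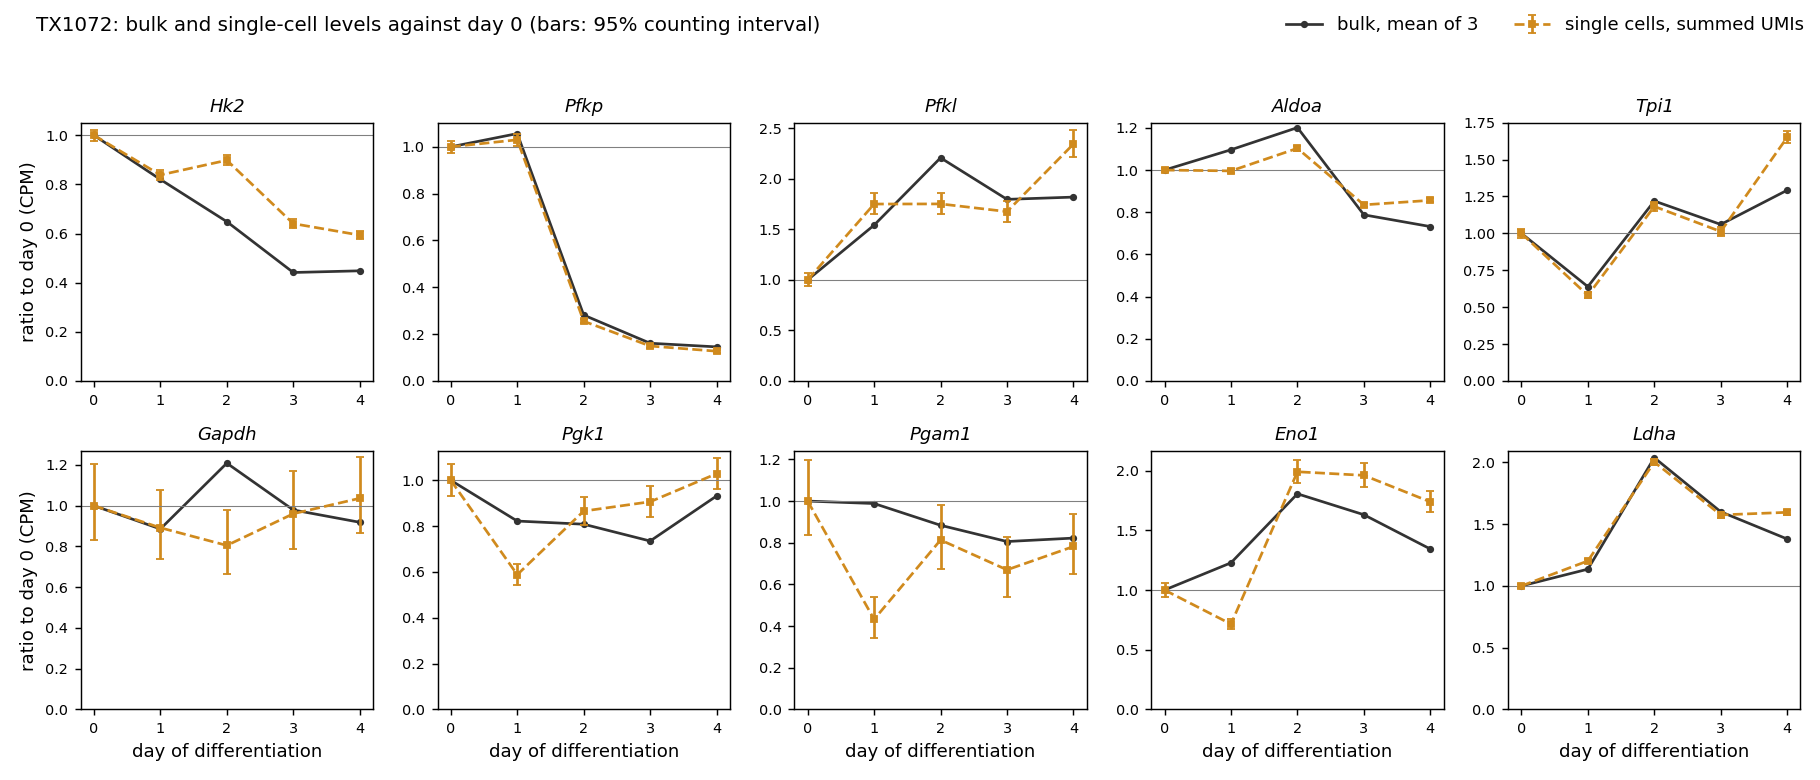
Ratio of the level to day 0 (y axis, from 0) by day (x axis) in TX1072 for bulk means of 3 replicates (black circles) and summed single-cell UMIs (orange squares, bars for the 95% counting interval), one panel per gene. Pfkp falls to 0.127 of day 0 in the single cells on day 4, and Pgk1 dips to 0.588 on day 1 and returns to 1.03 on day 4.

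Eno1 went the other way from bulk on day 1, at 0.715 of day 0 (0.671 to 0.761) in the single cells and at 974 ± 102 against 793 ± 34.8 CPM in bulk. Gapdh and Pgam1 had few UMIs. Gapdh had 232 UMIs in 277 cells on day 0, or 5.93 CPM, although its bulk level per length was among the 2 highest of the 10, and it was at 0 in 170 of the cells. Pgam1 had 249 UMIs, or 6.36 CPM. Pgk1 had 1643 UMIs on day 0, 42.0 CPM (40.0 to 44.0), then 24.7 (23.2 to 26.2) on day 1, 36.3 (34.5 to 38.2) on day 2, 38.0 (35.9 to 40.2) on day 3 and 43.2 (41.3 to 45.1) on day 4. In bulk day 1 stood at 306 ± 23.4 CPM against 372 ± 5.38 CPM on day 0. The unspliced share of Pgk1 UMIs was 5.66% on day 0 and 19.3% on day 1 (95% exact Clopper-Pearson interval 17.2% to 21.6%). It was 4.39% on day 2, 3.79% on day 3 and 8.75% on day 4. Among the other genes this share moved in both directions from day 0 to day 1. That of Eno1 went from 6.87% to 12.2%, and that of Pfkp from 7.15% to 3.60%.

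Cells were split by Xist, with Xist-positive cells holding more than 5 Xist UMIs and Xist-negative cells none. Pgk1 stood at 49.7 CPM (40.5 to 60.4) in 17 Xist-negative and 35.2 (33.3 to 37.2) in 294 Xist-positive cells on day 2, at 45.9 (40.1 to 52.3) in 42 and 34.0 (31.5 to 36.6) in 164 cells on day 3 and at 47.6 (42.8 to 52.9) in 46 and 40.3 (38.0 to 42.8) in 161 cells on day 4. Of these 3 days the intervals overlapped only on day 4. On day 1 they overlapped too, at 25.1 (21.8 to 28.7) in 70 Xist-negative and 24.5 (22.6 to 26.5) in 189 Xist-positive cells. So did those of day 0, at 42.2 (40.1 to 44.4) in 260 and 50.3 (36.1 to 68.2) in 5 cells. Of the 9 autosomal genes 3 had a higher level in Xist-positive than in Xist-negative cells on day 0 (5 positive cells), 5 on day 1, 4 on day 2 and 9 on days 3 and 4. Of all genes with at least 100 UMIs in these cells 40.2%, 51.4%, 54.9%, 52.9% and 54.1% did on days 0 to 4, and genes of the same cells are not independent. Ldha stood at 1307 (1258 to 1358) in Xist-negative and 1703 (1690.03 to 1717) in Xist-positive cells on day 2, at 978 (950.2 to 1006) and 1428 (1412 to 1444) on day 3 and at 972 (949 to 994) and 1544 (1529 to 1559) on day 4. Pfkp stood at 142 (126 to 159) and 76.1 (73.3 to 79.0) on day 2 and at 30.4 (26.6 to 34.7) and 42.0 (39.6 to 44.4) on day 4. Cells of 1 culture are not replicates, so no difference was tested, and the median UMIs per cell were 168658 and 175184 in the Xist-negative and Xist-positive cells of day 4.

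Only 7 Pgk1 UMIs were assigned to an allele in all retained cells, 6 to B6 and 1 to Cast, so that no allelic share by Xist class is given. The other X-linked genes had more. On day 4, in cells with monoallelic (MA) Xist from B6, the B6 share was 27.5% for Pdha1 (24.5% to 30.8%), 27.7% for G6pdx (19.6% to 36.9%), 0.741% for Pdk3 (0.0188% to 4.06%) and 12.7% for Pfkfb1 (6.96% to 20.8%). In cells with monoallelic Xist from Cast it was 92.5% (88.5% to 95.5%), 82.9% (67.9% to 92.8%), 98.3% (90.8% to 100.0%) and 67.9% (47.6% to 84.1%). These classes held 79 and 43 cells, and the intervals are exact binomial ones for counting error only.

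The genes around the pathway were described by lists. Of 19 other glycolytic enzymes and isozymes 15 were tested, and on day 4 of TX1072 4 were higher and 7 lower, against 30.2% and 29.4% of all genes tested. Ldhb, the heart-type lactate dehydrogenase, rose from 8.40 ± 2.79 to 208 ± 18.4 CPM (log2 change 4.62 ± 0.21, SE, adjusted p = 1.86e-12 by edgeR). The other 3 higher genes were Bpgm, Eno3 and Pkm, and Gpi1, Hk1 and Pfkm were among the lower ones, all named after their values were seen. The median log2 change of the list was -0.26.

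Glucose and lactate transport and the control of fructose 2,6-bisphosphate gave 6 higher and 3 lower genes of 13 tested, against the same 30.2% and 29.4%, with a median of 0.24. The lactate exporter Slc16a3 rose from 47.6 ± 9.13 to 287 ± 45.5 CPM and the fructose bisphosphatase Tigar fell from 137 ± 13.6 to 37.8 ± 1.52 CPM (log2 changes 2.60 ± 0.15 and -1.86 ± 0.10, SE, adjusted p = 4.94e-11 and 3.11e-11 by edgeR). The glucose transporters Slc2a1 and Slc2a3, named after their values were seen, were among the higher genes. Pyruvate entry into mitochondria gave 2 higher and 10 lower genes of 15, against 30.2% and 29.4%, with a median of -0.52. Pdk1, which inhibits pyruvate dehydrogenase, rose from 38.8 ± 2.81 to 127 ± 18.6 CPM, its opponent Pdp1, named after its value was seen, was the other higher gene, and Pdp2, which also reverses that inhibition, fell from 84.2 ± 5.35 to 28.1 ± 0.702 CPM. X-linked Pdha1 and Pdk3 were among the lower genes (log2 changes -0.36 ± 0.12 and -0.33 ± 0.11, SE, adjusted p = 0.0131 and 0.0126 by edgeR).

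The pentose phosphate pathway had 0 higher and 5 lower genes of 9 tested (Rpe, Rpia, Taldo1, Tkt and Tktl2, the first 4 named after their values were seen), with Tktl2 at 8.69 ± 0.876 and 1.06 ± 0.477 CPM. Gluconeogenesis had 0 higher and 3 lower of 5 (Fbp2, Pck2 and Pcx, the last 2 so named as well), with Fbp2, which runs the phosphofructokinase step in reverse, at 51.2 ± 8.23 and 1.31 ± 0.189 CPM. Of the targets of hypoxia-inducible factors outside glycolysis 5 were higher and 6 lower of 19 tested, with Plod2 at 13.8 ± 2.80 and 126 ± 15.2 CPM and Kdm3a at 317 ± 52.7 and 111 ± 3.90 CPM at days 0 and 4. These counts too stand against 30.2% and 29.4% of all genes tested. The medians of these 3 lists were -0.34, -0.52 and 0.23, and the last list had a median above 0 with more lower genes than higher ones. In the deletion lines as many genes of each list were tested as in TX1072, and of all genes 27.9% were higher and 28.7% lower from day 1 to day 4 in TXdXicB6 and 29.3% and 30.1% in TXdXicCast. The counts higher and lower were 7 and 4 in TXdXicB6 and 6 and 5 in TXdXicCast for the other glycolytic enzymes, 5 and 2, and 6 and 1, for transport, 1 and 11, and 0 and 12, for pyruvate entry, 0 and 6, and 0 and 7, for the pentose phosphate pathway, 0 and 2, and 0 and 3, for gluconeogenesis, and 7 and 5, and 7 and 8, for the targets of hypoxia-inducible factors.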

How the data were processed

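Bulk RNA of TX1072 was measured by stranded total RNA sequencing and that of the deletion lines by another ribosomal-depletion kit. The authors aligned reads with STAR 2.5.2b to mm10 (GRCm38) masked at SNPs, assigned alleles with SNPsplit, and deposited raw counts of unique exon-overlapping reads (featureCounts), and counts of distinct UMIs for single cells.

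Counts were tested with edgeR 4.0.16 (quasi-likelihood, TMM, filterByExpr for low counts, two-sided, with p-values adjusted by Benjamini and Hochberg and a threshold of 0.05), separately for the 15 TX1072 and the 30 deletion-line libraries, whose kits differ. Allelic counts used a term per library and at least 50 allele-assigned counts per group. Replicates were differentiated on different days, so numbers pair samples. The median correlation of deviations was 0.240 between libraries of the same number and -0.122 between others in TX1072, and 0.282 and -0.186 in the deletion lines. The retained cells, taken from the study's list, held 43060 to 300322 UMIs. Sums of UMIs per day were compared without a test.

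Simulations changed 200 genes and gave all genes the same dispersion. In the TX1072 design the edgeR fit found 99% of log2 changes of 1 and 26% of 0.5 (6.02% of calls false). In the deletion-line design it found 98% and 15% (4.24% false). In the data far more genes were called, 30.2% higher and 29.4% lower on day 4 of TX1072, and the adjusted p depends on that number. These recoveries thus describe the simulated setting and not the tests reported. The allelic test recovered 35.5% of log2 changes of 1 in TXdXicB6, where its simulated noise allowed 37.1%, and 62% for genes with over 1000 allele-assigned counts in both groups (4.05% of calls false). A first bound on this recovery, set higher, was not reached and was replaced by the recovery that the simulated noise allows. In this simulation, whose noise was assumed, the allelic test recovered 18.2% for genes with up to 1000 allele-assigned counts in a group. What the test missed in the data was not tested.

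Named genes are the 10 members, the smallest adjusted p of each list in each direction at day 4, the X-linked list genes, 5 genes most like Pgk1, and label checks. Other genes of the lists that the text names were named after their values were seen. A gene that this rule names and a sequence are not reported here. Members and lists were chosen with earlier results of these data known. Promoter sequences are RefSeq's. Alternatives were DESeq2 1.42.0, other scalings and filters, a replicate block, each replicate left out, other allelic minimums, and for cells all sites, the study's size factors, thinning to 40000 UMIs and a correction for shared UMIs. Leaving out TXdXicB6 day 0 replicate 1, or the TXdXicCast day 0 libraries, and lengths of all annotated exons were added after seeing the data.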

Additional observations from a re-analysis of the deposited data

Results flagged for a closer look

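The fall of the Xi:Xa ratio by day 4 was compared between the deletion lines, as the sum of their log2 B6:Cast changes from day 0, which is 0 where both lines fall alike and above 0 where the fall is larger in TXdXicB6. For Pgk1 the sum was 1.19 ± 0.20 (SE, adjusted p = 1.64e-06 by edgeR), and the same direction passed for 45.5% of the 332 X-linked genes, with a median of 0.50. Pgk1 is read at 1 SNP of its main transcript, where 2 processed pseudogenes match the B6 sequence, and their part in this sum was not tested. For G6pdx the sum was 0.54 ± 0.16 (adjusted p = 0.00581), and for Pdha1 it was -0.80 ± 0.09 (adjusted p = 7.33e-10), so that Pdha1 fell further in TXdXicCast. The direction of Pdha1 passed for 4.82% of the 332 X-linked genes. Pdk3 (0.32 ± 0.18, adjusted p = 0.158) and Pfkfb1 (-0.68 ± 0.34, adjusted p = 0.126) did not pass. The TXdXicCast day 0 libraries, made from degraded RNA, enter each of these sums. From day 1, which uses none of them, the log2 change of Pgk1 was 2.05 in TXdXicB6 and -1.08 in TXdXicCast. Each line is 1 clone, so that clone, deletion and strain of the Xi cannot be told apart.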

How the results depend on the processing

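The Pgk1 allelic changes of the deletion lines kept their direction and side of the threshold under all alternatives run for them, and with the allele by replicate term, which stands for the replicate block, the changes by day 4 were 2.07 in TXdXicB6 and -0.97 in TXdXicCast. With the replicate block 3 genes, in place of 1, were lower on day 1 of TX1072. With no filter on low counts 0 were higher on day 4 against day 0 of TXdXicCast. From day 1 to day 4 of TXdXicCast, Pfkl was at 0.017 with DESeq2 and 0.018 with its size factors in edgeR (-0.03 as reported), and Ldha at 0.0060 and 0.0063 (-0.04 as reported), none past the threshold, and the cause was not tested. Leaving out 1 library or replicate gave, in TX1072, 1 to 2 genes higher and 0 to 1 lower on day 1, 2 to 3 lower on day 3 and 2 to 4 higher on day 4. It gave 2 to 4 lower from day 1 to day 4 in TXdXicB6, 0 to 2 higher against day 0 and 1 to 2 higher against day 1 in TXdXicCast, and 1 to 5 lower between the lines on day 4. The log2 change of Gapdh in TX1072 on day 4 then ran from -0.26 to 0.11, that of Pgk1 from day 1 to day 4 from -0.061 to 0.28 in TXdXicB6 and from -0.084 to 0.030 in TXdXicCast, those of Pfkl and Ldha in TXdXicCast from -0.038 to 0.080 and from -0.041 to 0.041, and the Pgk1 B6:Cast change on day 3 of TX1072 from -0.64 to 0.41. In single cells the day 4 ratio of Gapdh was 1.58 when cells were thinned to 40000 UMIs (1.04 as reported) and that of Ldha 1.75 when corrected for shared UMIs (1.60). The 8 to 44 B6 counts of Pgk1 per TX1072 library, at a B6 share of 1.49% to 4.79%, limit the precision of its allelic change there.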
